A study of Mus musculus with 9 samples.

Results

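Abcb1a, Abca1 and Abcg1 encode membrane pumps of the ATP-binding cassette (ABC) family, and their transcripts were followed in T cells of the gut and of lymph nodes. They are 3 of the 770 genes of a barcoded-probe panel, each a single row of the deposited table, and they were selected on their deposited values, with Abcb1a higher and both cholesterol exporters lower in gut than in node samples. For the members that contrast is therefore described below without a test, and they are tested only in comparisons that did not enter the choice. Gut minus node fits of other genes are given as background, with gene lists drawn up with earlier results known.

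ABC transporters use ATP to move substrates across or within membranes. Abcb1a encodes a mouse P-glycoprotein (MDR1), which expels drugs and other xenobiotics, is known from the luminal face of the intestinal epithelium, and in mice protects T cells of the ileum from bile acids. Abca1 passes cholesterol and phospholipid to lipid-poor apolipoprotein A-I, and Abcg1 passes cholesterol to high-density lipoprotein. Both exporter genes are induced by the liver X receptors, nuclear receptors that sense oxysterols, and in mouse T cells Abcg1 is known to link sterol export to the control of proliferation.

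The 9 samples were RNA of T cells from the intraepithelial compartment of the gut (CD4, CD8 and CD4CD8), the small-intestinal lamina propria (CD4 and CD8), the mesenteric lymph nodes (CD4 and CD8) and the peripheral lymph nodes (CD4 and CD8), with 1 sample for each. The protocols shared by all samples name mice on the B10.RIII background, either wild type (WT) or Rag2-/- IRBP-/- R161H, immunization with 10 µg of the retinal peptide IRBP161-180 in complete adjuvant, and, for WT mice, ampicillin, metronidazole, neomycin, vancomycin and gentamicin in a sucralose gel, begun 1 week before immunization in a short arm and at least 4 weeks earlier in a long arm. No label says which genotype, antibiotic arm, age or number of mice stands behind a sample, so these could not be compared. With no replicate samples, p-values rest on how far a difference varied between tissues or subsets.

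Lineage transcripts matched the labels. Cd4 was at the floor of the table (log2 of 20 normalized counts, 4.32) in the 4 CD8 samples, Cd8a in the 4 CD4 samples, and the CD4CD8 sample had Cd4 at 10.06, Cd8a at 11.50 and Cd8b1 at the floor. The floor hides different amounts in different samples, because the lowest listed value above it, here called the limit, differed between them. Among the intraepithelial samples it was 6.30 (CD4), 5.52 (CD4CD8) and 5.05 (CD8), it was 5.59 for lamina propria CD8, and for the remaining 5 samples it did not exceed 4.38. A gene at the floor lies somewhere below its sample's limit. In those 4 samples the low values stepped by whole counts (94.0 to 100% of values up to 150 normalized counts, within 0.005 log2), and the limit then equalled 20 counts to the nearest whole count. In the other 5 samples no step was found within the range of steps searched, and the depth is unknown. Averaged over 20 housekeeping genes, the 9 samples ranged from 7.64 to 7.88.

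Promoter sequence is shown for the exporter Abca1 and the pump Abcb1a, since their transcripts ran in opposite directions between tissues. RefSeq (assembly GRCm38.p6) gave windows for 2 of the 3 members, here the 250 bases before the start site used in its table. Capitals mark letters found by a search of both strands for a direct repeat of the kind bound by liver X receptors (GGTNANNNNNGGTCA), a TATA box (TATAAA), an E-box (CACGTG), a GC box (GGGCGG) and a CCAAT box (CCAAT). No marked match overlaps another.
Abca1, chr4:53159896-53160145, minus strand: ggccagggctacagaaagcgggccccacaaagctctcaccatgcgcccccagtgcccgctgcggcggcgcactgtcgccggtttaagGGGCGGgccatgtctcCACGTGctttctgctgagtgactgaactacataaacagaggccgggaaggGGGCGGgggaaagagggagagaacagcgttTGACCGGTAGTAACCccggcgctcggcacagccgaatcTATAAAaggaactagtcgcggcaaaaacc
Abcb1a, chr5:8566841-8567090, plus strand: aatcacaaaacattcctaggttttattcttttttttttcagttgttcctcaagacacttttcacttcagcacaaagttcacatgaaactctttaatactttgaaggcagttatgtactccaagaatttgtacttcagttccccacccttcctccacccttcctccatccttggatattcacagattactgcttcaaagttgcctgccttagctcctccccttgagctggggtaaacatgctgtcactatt

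The Abca1 window held 1 match to the direct repeat, on the reverse strand at bases -67 to -53 from the start (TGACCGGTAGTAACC), and the same letters occurred in 0.177% of the 32851 promoter windows of the table. It also held a TATA box at -29 to -24 (12.4% of windows), an E-box at -147 to -142 (6.02%) and GC boxes at -163 to -158 and -97 to -92 (32.7%), and no CCAAT box (33.8%). None of the 5 motifs was found in the Abcb1a window. Its GC content was 40.4% against 61.6% for Abca1, and the median of all windows was 52.4%. These matches describe letters and were not tested for binding.

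Abcb1a, the xenobiotic pump, was highest in the epithelium and lowest in the nodes. Its log2 value in the intraepithelial compartment was 9.44 (CD4), 9.99 (CD4CD8) and 10.40 (CD8). In the lamina propria it was 8.64 in CD4 and 8.20 in CD8. The node values were 6.34 (CD4) and 6.57 (CD8) for mesenteric and 5.78 (CD4) and 6.37 (CD8) for peripheral nodes. Every gut sample thus lay above every node sample, with a smallest gap of 1.63 between lamina propria CD8 and mesenteric CD8. On average the 4 gut CD4 and CD8 samples exceeded the 4 node samples by 2.905 (7.49-fold), and the rank of this difference was 14 from the top of 433 genes tested. Among those genes 7.62% had every gut sample above every node sample.

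Where counts could be recovered, the Abcb1a values rested on 176 counts in intraepithelial CD4 (log2 9.22 to 9.65, an exact Poisson 95% interval that covers counting error only), 443 in CD4CD8 and 814 in CD8 of that compartment, and 122 in CD8 of the lamina propria (7.93 to 8.46). The intervals of the 3 intraepithelial samples lay above that of lamina propria CD8. Gaps were set beside the SD of a difference between 2 samples in the fit (0.50), which is a scale and not a test. Those between intraepithelial CD8 and CD4CD8 (0.41), between both lamina propria samples (0.44) and among the upper 3 node samples (0.20 and 0.03) were smaller. Intraepithelial CD4 lay 0.55 below CD4CD8, little more than that SD, and 0.80 above lamina propria CD4. The CD4CD8 sample was not in that fit, and none of these gaps was tested. Abcb1b, a close paralogue of Abcb1a, and the probe sequences were not analysed here, so cross-hybridization was not tested. As in any bulk RNA sample, more cells with the transcript and more transcript per cell cannot be told apart.

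Abca1, the exporter to lipid-poor apolipoprotein, was seen mainly in the nodes. It was 6.76 and 6.73 in peripheral CD4 and CD8, 5.35 and 5.49 in mesenteric CD4 and CD8, 4.53 in lamina propria CD4, and at the floor in lamina propria CD8 and in all 3 intraepithelial samples. The listed values of gut and node samples did not overlap, and 11.5% of the 433 genes shared this order, every gut sample below every node sample. The limits narrow what these floors show. Intraepithelial CD8 (below 5.05) lay under both node CD8 samples, whereas lamina propria CD8 (below 5.59) is known only to lie under the peripheral samples, and intraepithelial CD4 (below 6.30) only under the peripheral samples.

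The listed mean was 4.37 in gut and 6.08 in node CD4 and CD8 samples, a difference of -1.71. With the floors taken at their limits it was -0.715, so the size of the Abca1 gap rests on samples in which the gene was not detected. Lamina propria CD4, whose limit of 4.34 was close to the floor, gives the one gut value that was measured. Its difference was -0.82 from mesenteric CD4 and -2.23 from peripheral CD4, which corresponds to 1.77-fold and 4.69-fold lower.

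Abcg1, the exporter to high-density lipoprotein, was above the floor in every sample. It was highest in peripheral, lower in mesenteric and lowest in gut samples. The listed Abca1 values had the same order, but its limits do not settle mesenteric against gut for most gut samples at the floor. Abcg1 was 8.63 and 8.64 in peripheral CD4 and CD8 and 7.96 and 7.86 in mesenteric CD4 and CD8. The lamina propria samples had 7.03 (CD4) and 6.94 (CD8), and the intraepithelial samples 7.26 (CD4), 6.95 (CD4CD8) and 6.56 (CD8). Gut and node samples did not overlap, with a smallest gap of 0.60 between mesenteric CD8 and intraepithelial CD4, an order shared by 11.5% of the 433 genes, and the mean difference was -1.325 (2.51-fold lower in gut).

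The intraepithelial Abcg1 values were thin, at 39 counts in CD4 (6.77 to 7.72), 54 in CD4CD8 and 57 in CD8 (6.16 to 6.94), and the lamina propria CD8 value rested on 51 counts. Within the gut the neighbours in order were closer than the SD of a difference between samples in the fit (0.31), which is not a test. The exception was intraepithelial CD8, which lay 0.38 below lamina propria CD8 with overlapping count intervals. In the nodes the peripheral samples stood 0.67 above mesenteric CD4.

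**Figure D1:**
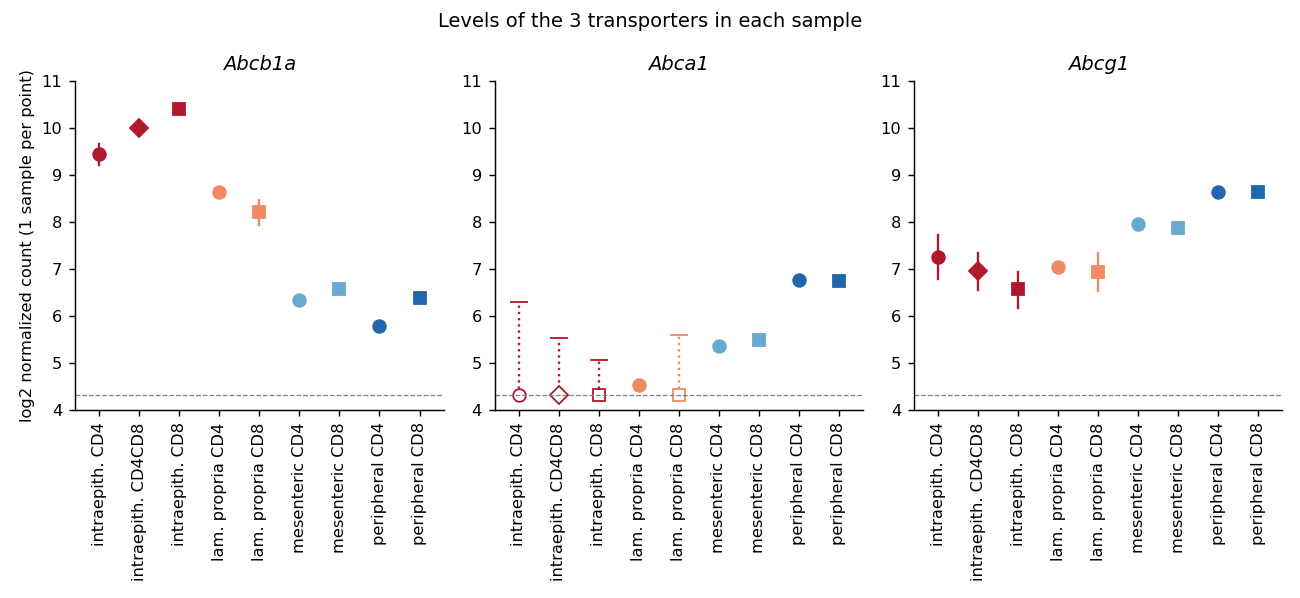
Log2 normalized count of Abcb1a, Abca1 and Abcg1 in each of the 9 samples (circles CD4, squares CD8, diamonds CD4CD8; red and orange gut, light and dark blue node). Vertical lines are exact Poisson 95% intervals where counts were recovered, open symbols are values at the floor (dashed line, 4.32), and dotted lines run up to the sample's limit. Abcb1a falls from 10.40 in intraepithelial CD8 to 5.78 in peripheral CD4, and both exporters are highest in the peripheral samples.

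A ratio of the pump to an exporter within 1 sample does not depend on the scaling between samples. Its level compares different probes and has no meaning of its own, but its change between samples does. The log2 ratio of Abcb1a to Abcg1 was 2.18 (CD4), 3.04 (CD4CD8) and 3.84 (CD8) in the epithelium, and 1.61 (CD4) and 1.26 (CD8) in the lamina propria. It was -1.62 (CD4) and -1.29 (CD8) in mesenteric and -2.85 (CD4) and -2.27 (CD8) in peripheral nodes. Averaged over CD4 and CD8, gut exceeded node by 4.23, with a smallest gap of 2.55 between a gut and a node sample.

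The ratio of Abcb1a to Abca1 was computed with Abca1 at its limit where it lay at the floor. In the epithelium it was then at least 3.14 (CD4), 4.47 (CD4CD8) and 5.35 (CD8), and in the lamina propria 4.11 (CD4) and at least 2.61 (CD8). The node samples were at 0.99 and 1.08 (mesenteric CD4 and CD8) and -0.98 and -0.36 (peripheral CD4 and CD8). Every gut value or bound lay above every node value, a direction that the choice of the genes had fixed. Within the gut these bounds give no order of the samples.

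**Figure D2:**
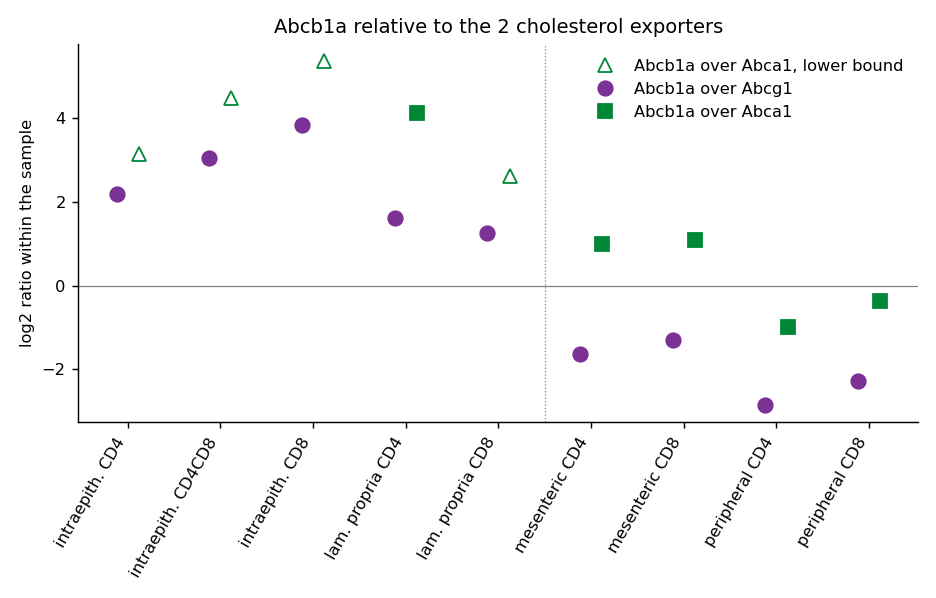
Log2 ratio of Abcb1a to Abcg1 (purple circles) and to Abca1 (green squares, or open triangles for lower bounds with Abca1 at its sample's limit) within each sample, gut to the left of the dotted line. The lowest gut ratio to Abcg1 is 1.26 and the highest node ratio is -1.29.

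The first tested comparison set the intraepithelial against the lamina propria samples. Abcb1a rose by 1.5 ± 0.35 (SE of the limma fit over 8 samples, adjusted p = 0.0401), with a difference of 0.80 in CD4 and 2.20 in CD8. Abca1 and Abcg1 did not pass, at -0.105 ± 0.23 and -0.075 ± 0.22 (limma adjusted p = 0.821 and 0.873). Of the 433 genes, 22.2% were called in this comparison. The Abcb1a call was close to the threshold: its adjusted p was 0.0957 without the peripheral pair, 0.0996 without the mesenteric pair, 0.0542 without the mean-variance trend, 0.0945 with a common raised floor and 0.137 when genes at the floor were not filtered out, and the size stayed at 1.5 in these fits.

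The Abcg1 difference ran in opposite directions in both subsets, 0.23 in CD4 and -0.38 in CD8, each from 1 pair. For Abca1 3 of the 4 samples were at the floor, and with the floors at their limits the difference was 0.615 ± 0.55 (limma adjusted p = 0.547). The sign of an Abca1 difference between the gut compartments cannot be read from these samples.

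The nodes were compared with each other next. Both exporters had lower values in the mesenteric than in the peripheral samples. The difference was -1.41 in CD4 and -1.24 in CD8 for Abca1, and -0.67 and -0.78 for Abcg1. Abca1 had the lowest mesenteric minus peripheral difference of the 433 genes tested (-1.325 ± 0.23) and Abcg1 ranked 10 from the lowest (-0.725 ± 0.22). Neither passed the correction over all genes (limma unadjusted p = 0.00258 and 0.0219, adjusted p = 0.837 for both). Abcb1a was 0.56 higher in mesenteric CD4 and 0.20 higher in mesenteric CD8 (0.38 ± 0.35, limma adjusted p = 1).

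In this comparison 0% of the genes were called by limma, and 20 genes had an unadjusted p under 0.05. Of all genes tested, 13.9% had both mesenteric below both peripheral samples. With all values below 6.30 raised to it, Abca1 was called (-0.445, limma adjusted p = 0.001255). Its mesenteric and gut values then all become equal and add no spread to the fit. None of the 4 node samples was at the floor for a member, but the SE is pooled over all 8 samples, gut floors included. With floors at their limits the Abca1 difference was -1.325 ± 0.55 (limma unadjusted p = 0.0544, adjusted p = 0.863).

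No transporter passed the test of CD8 against CD4 samples. For Abcb1a the CD8 minus CD4 difference was 0.96 in the intraepithelial samples, -0.44 in the lamina propria, 0.23 in mesenteric and 0.59 in peripheral nodes (0.335 ± 0.25, limma adjusted p = 0.393). For Abcg1 it was -0.70, -0.09, -0.10 and 0.01 in the same order (-0.22 ± 0.15, limma adjusted p = 0.376). For Abca1 it was 0, -0.21, 0.14 and -0.03 (-0.025 ± 0.17, limma adjusted p = 0.920), with both intraepithelial samples and lamina propria CD8 at the floor. With that floor at its limit the lamina propria difference was 1.06, so only the node values bear on its sign. Of the genes tested 14.8% were called. The signs for Abca1 and Abcg1 turned when samples were centred on their medians, which moved the median of all genes from -0.14 to 0.13.

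A further term in the fit asked whether gut and node differed in their CD8 minus CD4 difference. The estimates were -0.15 ± 0.54 for Abcb1a, -0.16 ± 0.29 for Abca1 and -0.35 ± 0.28 for Abcg1 (limma adjusted p = 0.920, 0.826 and 0.575), and 1.39% of all genes were called. That fit had 2 residual degrees of freedom. The CD4CD8 sample, outside the fit, lay between intraepithelial CD4 and CD8 for both detected members. It was 0.55 above CD4 and 0.41 below CD8 for Abcb1a, and 0.31 below CD4 and 0.39 above CD8 for Abcg1.

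**Figure D3:**
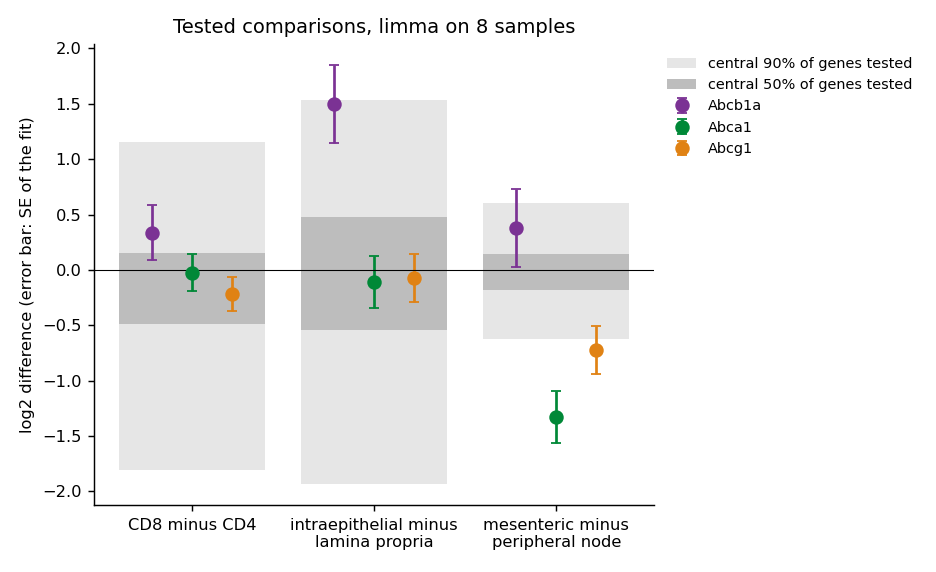
Log2 difference of each member in the 3 tested comparisons (points, error bars SE of the limma fit over 8 samples), with grey bands for the central 50% and 90% of the 433 genes tested. Abca1 at -1.325 and Abcg1 at -0.725 lie below the 90% band of mesenteric minus peripheral, and Abcb1a at 1.5 lies at the upper end of the band of intraepithelial minus lamina propria.

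Of 19 other ABC family genes listed, 3 were measured. Tap1 and Tap2 encode the pair of subunits of the transporter that loads peptides for class I presentation. Tap1 had values of 9.38 (CD4) and 9.16 (CD8) in the epithelium, 8.70 (CD4) and 8.34 (CD8) in the lamina propria, and 8.63 to 8.88 in the nodes, and rose by 0.75 ± 0.13 in intraepithelial over lamina propria samples (limma adjusted p = 0.0191). Tap2 did not pass in any comparison. Abcf1, an ABC protein without membrane spans that serves as a housekeeping gene of the panel, was 6.77 to 7.50 in the 9 samples. In gut against node, where 28.9% of all genes were called, neither Tap gene was called, and their median difference was 0.13 against 0.0375 for all genes.

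Few genes of sterol handling were on the panel. Of 37 listed, 10 were measured and 3 tested, and 4 of the 10, among them the scavenger receptors Cd36, Msr1 and Marco, were at the floor in every sample. Apoe, an apolipoprotein that accepts cholesterol, had values of 6.26 (CD4) and 6.32 (CD8) in the lamina propria, 4.58 in mesenteric CD4 and otherwise lay at the floor. Lrp1, a receptor that takes up Apoe-rich particles, was 5.90 and 6.32 in the lamina propria only. Lrp1 passed the filter on low values through the lamina propria alone, and Apoe through it and mesenteric CD4, so a gut or lamina propria direction was built into their being tested and no test is given. In CD4 the lamina propria values of both genes lay below the intraepithelial limit of 6.30, so the intraepithelial CD4 level could be as high. App, the amyloid precursor protein, was 5.78 to 7.50 outside the epithelium and was not above the floor within it, where the limits of 6.30 (CD4) and 5.05 (CD8) lay below the lamina propria values of 7.50 and 7.25.

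Of 27 nuclear receptor and xenobiotic response genes 3 were measured. Rora, a nuclear receptor that binds sterols, rose in gut by 2.58 ± 0.20 (limma adjusted p = 0.00245), where 15.7% of all genes were called higher. Pparg was at the floor throughout. The receptors of bile acids, xenobiotics and oxysterols on that list were not analysed here.

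Lists of tissue residence and of lymph node homing, drawn up with earlier results known, give the setting of the transporters. Of 10 tested residence genes 5 were higher and 1 lower in gut (15.7% and 13.2% of all genes). Because of how the lists were drawn up, such counts describe the setting and do not test it. Itgae (the integrin chain CD103) was higher by 2.10 ± 0.19 and Itga1, a collagen-binding integrin chain, by 3.355 ± 0.37. The gene called lower was the integrin chain Itga4 (-1.38 ± 0.09), and Cd69 was not called (-0.38 ± 0.30). Of 5 naive and homing genes 5 were lower, and Ccr7, the node-homing receptor, fell by 2.98 ± 0.12. The SE of these gut differences leaves out the gap between the gut compartments. Ccr7 was 6.37 (CD4) and 6.69 (CD8) in the epithelium, 9.63 and 10.48 in the lamina propria, and 10.91 to 11.59 in the nodes. Cd244 and Prdm1 of the residence list were above the floor only in gut, which fixed their direction, and Cd244 is among the 5 called higher. In intraepithelial against lamina propria samples, where Abcb1a rose, 3 of 10 residence genes rose (12.5% of all genes) and 4 of 5 homing genes fell (9.7% of all genes).

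The genes whose values ran most like each member over the 9 samples were ranked by Pearson's r among genes above the floor in at least 5 samples. The points share scaling, probes and the split of gut and node, so r is a description. For Abcb1a they were Cd38 (0.985), an ectoenzyme of activated lymphocytes, the granule proteases Gzma (0.983) and Gzmb (0.977), Litaf (0.974) and Itga1 (0.958). Gzmb was at the floor in every node sample, so it met the filter through gut samples alone. In the nodes Gzma exceeded the floor only in mesenteric CD8 (4.67) and Litaf only in peripheral CD4 (4.35), and Itga1 was at most 4.46. The r of these genes largely restates the split of gut and node on which Abcb1a was chosen. Cd38 was 8.62 to 9.58 in the intraepithelial samples, 7.40 (CD4) and 7.48 (CD8) in the lamina propria and at most 5.27 in the nodes. Unlike Abcb1a it was lower in intraepithelial CD8 than in CD4CD8.

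For Abca1 the first 5 included Abcg1 (0.963), Il1rap (0.916), Ltb (0.911) and Atg16l1 (0.895). For Abcg1 they included Abca1 (0.963), Hsd11b1 (0.924), an enzyme that regenerates active glucocorticoid, Cd47 (0.918) and Il1rap (0.916). Il1rap, the accessory chain of the interleukin-1 receptor, was detected, like Abca1, in lamina propria CD4 (4.79) and the nodes (5.32 and 4.93 mesenteric, 5.60 and 5.32 peripheral) and was at the floor elsewhere. With Abcb1a, r was -0.862 for Abca1 and -0.907 for Abcg1. These signs, and the r between both exporters, largely restate the split of gut and node on which the members were chosen. Ties at the floor in the same samples also enter the r of Abca1 with Il1rap.

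**Figure D4:**
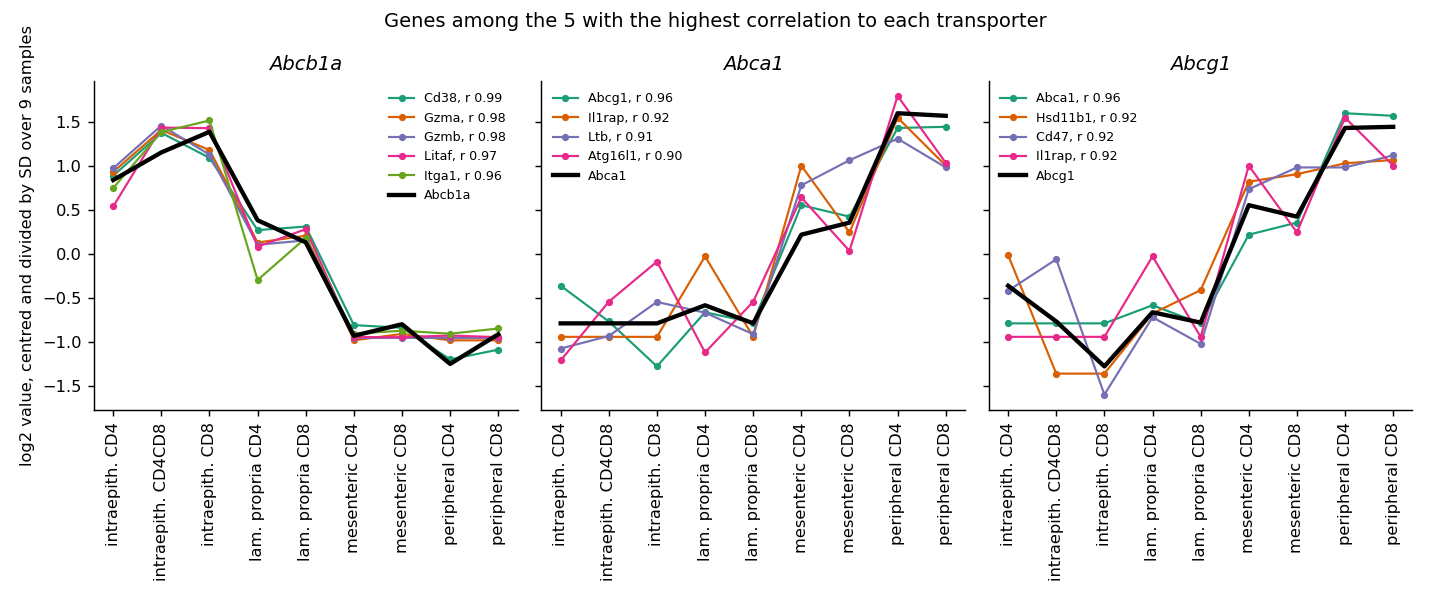
Profiles of each member (black) and of genes among the 5 with the highest Pearson r to it (colours), as log2 values centred and divided by their SD over the 9 samples. The genes nearest Abcb1a step down from the intraepithelial to the lamina propria and node samples, and those nearest the exporters step up in the nodes.

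Markers of other cells were read beside the members, since macrophages carry Abca1 and Abcg1 and enterocytes carry Abcb1a. Of 19 myeloid markers measured, 13 were at the floor in all samples, among them Csf1r, Emr1, Itgam, Cd163, Mrc1 and Mertk. The summed level of the myeloid markers above the floor was 1029 (CD4) and 505 (CD8) normalized counts in the lamina propria, 43.1 to 423 in the intraepithelial samples, 99.9 and 27.1 in mesenteric CD4 and CD8, and 127 and 49.7 in peripheral CD4 and CD8. In the CD4 samples these sums included Ccr2, at 7.96 (intraepithelial), 7.62 (lamina propria), 5.62 (mesenteric) and 6.40 (peripheral). Elsewhere Ccr2 was at the floor, apart from 4.65 in peripheral CD8. Lyz2, the macrophage lysozyme, was 9.52 in lamina propria CD4, the gut sample with Abca1 at 4.53. It was 8.98 in lamina propria CD8, where Abca1 was at the floor (below 5.59). Lyz2 was at the floor in all intraepithelial samples and at most 4.53 in the nodes. The part of myeloid RNA in the exporter values was not tested.

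Of 9 epithelial markers measured, 8 were above the floor in some sample. Their summed level was 7302 (CD4) and 5687 (CD8) normalized counts in the lamina propria, 176 to 573 in the intraepithelial samples and at most 42.5 in the nodes. Over intraepithelial CD4, CD4CD8 and CD8 the sum was 256, 176 and 573, and Abcb1a was 9.44, 9.99 and 10.40. In intraepithelial CD4 only Ccl20 (7.30) and Cdh1 were above the floor, and in CD4CD8 and CD8 only Epcam and Cdh1. Ccl20 was otherwise above the floor only in lamina propria CD4 (8.44) and mesenteric CD4 (4.43). Cdh1, the adhesion molecule E-cadherin, was 6.62, 6.72 and 8.95 in intraepithelial CD4, CD4CD8 and CD8, the same order as Abcb1a. In the lamina propria it was 8.37 (CD4) and 8.35 (CD8). Cdh1 was also above the floor in mesenteric CD8 (5.41) and peripheral CD8 (5.38), and at the floor in both node CD4 samples. Epcam was at the floor (below 6.30), 6.15 and 6.29 in the same samples, and 9.48 (CD4) and 9.21 (CD8) in the lamina propria. Dmbt1 was at the floor in all intraepithelial and node samples and was 12.42 (CD4) and 12.11 (CD8) in the lamina propria. The part of epithelial RNA in the Abcb1a values was not tested. NK cell markers summed to 1878 in intraepithelial CD8 and 1676 and 1917 in mesenteric and peripheral CD8, where Abcb1a was 10.40, 6.57 and 6.37. Most of each sum was Klrd1 (10.81, 10.49 and 10.64), followed by Klrk1 (6.37, 7.68 and 8.16). Ncr1 and Klra1 were at the floor in these CD8 samples.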

How the data were processed

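The deposited table held log2 values of 770 genes in 9 samples with 2 decimals; per the labels' protocols RNA was isolated with a column kit and measured with a biotinylated capture and a barcoded reporter probe. How the authors scaled the samples and set the floor is not given in the sources used here. Values were used as deposited, in place of the log2(value + 1) planned for a linear table. Count steps were sought as whole multiples in values of up to 150 normalized counts. The search covered a limited range of step sizes, so a smaller step could be missed.

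Tests covered genes that exceeded the floor in 2 or more of the 8 CD4 and CD8 samples, without 20 housekeeping genes (433, all 3 members among them). limma 3.58.1 (R 4.3.3) fitted tissue and subset as additive terms with a mean-variance trend (3 residual degrees of freedom), and p-values are two-sided, adjusted by Benjamini-Hochberg over all genes tested, at a threshold of 0.05. Tissue differences average both subsets, so the gap between the 2 tissues of gut or node is not in their SE. Where many values are at the floor, the SE can be too small. Promoter windows came from RefSeq.

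The members and gene lists were chosen with earlier results of these data known. Named genes are the members, the 5 genes of highest Pearson r with each among those above the floor in at least 5 of 9 samples, called members of the lists with up to 4 more, and markers of other cells above the floor; the text gives those its groups need, and 2 of these genes are not reported here.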

Additional observations from a re-analysis of the deposited data

How the results depend on the processing

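Abcb1a kept its sign in every alternative of the intraepithelial, node, CD8 and gut comparisons, and Abcg1 kept its sign in the gut and node comparisons. Leaving out a tissue pair moved the gut minus node value of Abcb1a to 2.155 (without the intraepithelial pair) and 3.655 (without the lamina propria pair), of Abca1 to -2.37 when the mesenteric pair was omitted and -1.05 when the peripheral pair was omitted, and of Abcg1 to -1.69 and -0.96 in the same order. The Abca1 value was -0.715 with floors at each sample's limit and -0.22 with a common raised floor. The Abcb1a call of intraepithelial over lamina propria (1.5) was lost in 5 of 8 alternatives, with adjusted p between 0.0225 and 0.137 over all of them. Abca1 between the nodes was called only with the common raised floor (-0.445).

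Signs turned in uncalled values: CD8 minus CD4 for Abca1 (0.245 with median centring, 0.037 without the lamina propria pair) and Abcg1 (0.05 with median centring), intraepithelial minus lamina propria for Abca1 (0.615 at limits) and Abcg1 (0.008 with housekeeping centring), and the gut-node difference of the CD8 minus CD4 difference for Abcb1a (0.11 with the raised floor, 0.12 with median centring, 0.55 without the lamina propria pair, 0.03 without the peripheral pair) and Abca1 (0.015 with the raised floor, 0.11 with median centring).

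Counts of calls fell with the raised floor from 64 to 24 (CD8 minus CD4), 96 to 57 (intraepithelial minus lamina propria) and 125 to 81 (gut minus node), and with no filter to 14 and 50 in the first and second. Without the lamina propria, mesenteric and peripheral pairs CD8 minus CD4 gave 8, 13 and 13. Without the mesenteric and peripheral pairs intraepithelial minus lamina propria gave 47 and 26, and gut minus node 60 and 22. Between the nodes the raised floor and no filter each gave 1 in place of 0. For the gut-node difference of the CD8 minus CD4 difference 6 calls became 21 at limits, 3 with the raised floor, 10 with housekeeping centring, 1 with no filter, 16 and 52 without the intraepithelial and lamina propria pairs and 0 without either node pair (35 and 30 genes at an unadjusted limma p under 0.05). Fewer samples leave fewer residual degrees of freedom. Some counts fell and others rose when a pair was left out, and the causes were not tested. Centring on medians gave 60.6% of calls higher in place of 37.5% for CD8 minus CD4 and 28.9% in place of 54.4% for gut minus node, with the median difference of all genes moving to 0.13 and -0.29; housekeeping centring moved no median by over 0.1. Floors at limits gave 65.4% in place of 56.3% and 66.3% in place of 54.4% higher calls for the intraepithelial and gut comparisons.

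No paired analysis was possible because the labels carry no replicate numbers and each group had 1 sample; tissue was a term of every fit. The depth behind intraepithelial Abcg1 and the limits of Abca1 bound what these samples can show.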
